A study of Zea mays with 8 samples.

Results

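The 22-kDa alpha zeins of maize were followed in endosperm through 3 genes of chromosome 4, Zm00001d048808, Zm00001d048816 and Zm00001d049243, taken by ID from a table of 37965 genes. They were chosen with the difference between the genotypes already known, so their levels are described here without a test. The series held 8 RNA-seq libraries of Zea mays, line A188, from endosperm enriched for the EAS (endosperm adjacent to the scutellum, the layer that faces the embryo), taken 19 days after pollination. Per the labels, 4 libraries came from a KIL1 KIL2 knockout and 4 from wild type (WT). KIL1 and KIL2 belong to the NAC family of transcription factors, and the series asks what their loss does to this tissue. The labels name neither the alleles of the knockout nor whether each library stands for a plant, an ear or a pool, so spreads between libraries may be technical in part.

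Zeins are the prolamin storage proteins of the maize kernel. They are made on the rough endoplasmic reticulum of the starchy endosperm and packed into protein bodies, in which alpha zeins fill the core inside a shell of gamma and beta zeins. The alpha zeins fall into 19-kDa and 22-kDa classes. The 22-kDa class is the z1C family, whose genes are intronless and lie mostly in tandem, so that copies resemble each other closely. Opaque2, an endosperm bZIP factor, is known as the activator of 22-kDa genes. The floury2 mutation alters the signal peptide of a 22-kDa alpha zein, so that the uncleaved protein disturbs the protein bodies and gives a soft, floury kernel.

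All 3 genes had a single exon in the deposited A188 annotation. Zm00001d048808 lies at chromosome 4, 5291016 to 5291414, on the plus strand, with 399 bases of exon. Zm00001d048816 lies at chromosome 4, 5346929 to 5347713, on the plus strand, with 785 bases. These genes are 55.5 kb apart with 4 annotated genes between them. Zm00001d049243, written gene:Zm00001d049243 in the table, lies at chromosome 4, 23740485 to 23741279, on the minus strand, with 795 bases. It stands alone, 18393 kb from Zm00001d048816 and 335 annotated genes away.

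The name floury2 was attached to Zm00001d048808 when the genes were chosen, and the gene order in the reference data goes against it. RefSeq's gene table for assembly Zm-B73-REFERENCE-NAM-5.0, of the line B73, lists 14 z1C1 genes in a run on chromosome 4, of which 7 are protein-coding and 7 are transcribed pseudogenes. It gives the synonym floury2 to 1 gene, z1C2, which stands alone on the same chromosome with 268 protein-coding genes between it and the last z1C1 gene. In the A188 table the member that stands alone is Zm00001d049243. Zm00001d048808 has another member close by. RefSeq gives a length of 904 bases for z1C2 and 939 to 968 bases for the protein-coding z1C1 genes. The model of Zm00001d048808 has 399 bases of exon, against 785 and 795 for the other members. Whether that model is a partial or truncated gene was not tested. None of the 37965 IDs matched an identifier of the 49888 RefSeq genes (0 matches), so the comparison rests on gene order in different lines, and the genes are called by their IDs below.

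The 4 knockout libraries held 47143888 to 65625013 counts each and the 4 wild type libraries 58330218 to 80577963. Knockout replicate 1 stood apart from the other knockout libraries on the second principal component of log2 CPM (16.7% of the variance). Levels are given as CPM, normalised counts at a common library size after TMM scaling, which sets the bulk of genes equal between libraries. The TMM factors were 0.929 to 0.975 in the knockout and 1.02 to 1.07 in wild type, so scaling moved with genotype. Transcripts of KIL1 and KIL2 and markers of the EAS were not analysed here, because the IDs carry no names. In bulk endosperm, fewer cells of a type and less RNA per cell cannot be told apart.

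Each of the 3 genes was higher in the knockout than in wild type, by nearly the same factor of about 1.4-fold, although their levels differed widely. The groups did not overlap for any of the 3. Among the 22014 genes tested, all knockout libraries lay above all wild type libraries for 10.8%, which is given as background only, since the members were chosen on this contrast. Among the 100 genes with the highest mean CPM, which include 2 of the members, the same held for 56. Such a separation was thus common at the level of the more abundant members.

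Zm00001d049243, the gene that stands alone, was the most highly counted of the 3. Its level was 18388, 16406, 19269 and 16736 CPM in knockout replicates 1 to 4 and 13189, 11058, 11761 and 12725 CPM in wild type replicates 1 to 4. The lowest knockout library was thus well above the highest wild type library. The means were 17700 ± 1359 CPM for knockout and 12183 ± 958 CPM for wild type (SD, n = 4), a ratio of 1.45-fold (log2 fold change 0.54, SE 0.08). It ranked second of all tested genes by CPM in each of the 8 libraries.

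Zm00001d048816 measured 13784, 16546, 17334 and 14813 CPM in knockout replicates 1 to 4. In wild type replicates 1 to 4 it measured 12619, 9703, 10287 and 11229 CPM. Knockout replicate 1 and wild type replicate 1 came closest to each other, and the groups stayed apart. The means were 15619 ± 1614 CPM and 10960 ± 1273 CPM (SD, n = 4), a ratio of 1.43-fold (log2 fold change 0.51, SE 0.10). This gene ranked first by CPM in knockout replicate 2 and at place 3 in the other 7 libraries.

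Zm00001d048808, the gene with the shortest exon, was far less abundant. It measured 634, 457, 548 and 430 CPM in knockout replicates 1 to 4 and 386, 281, 371 and 401 CPM in wild type replicates 1 to 4. The gap between the groups was narrow, from 401 CPM in wild type replicate 4 to 430 CPM in knockout replicate 4. The means were 517 ± 92.7 CPM and 359.8 ± 53.9 CPM (SD, n = 4), a ratio of 1.44-fold (log2 fold change 0.52, SE 0.13). Its rank by CPM ran from 131 to 217 in the knockout and from 234 to 370 in wild type.

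**Figure D1:**
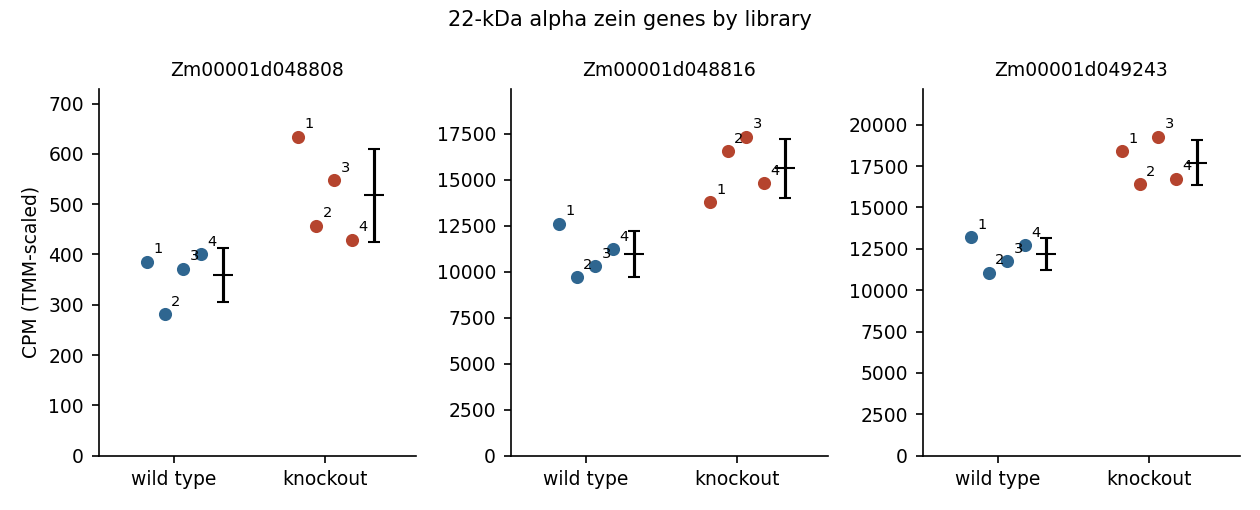
CPM (TMM-scaled, linear axes from 0) of each gene in the 4 wild type and 4 knockout libraries, numbered by replicate, with bars for the mean and SD of each group. All knockout points lie above all wild type points in the 3 panels, with the narrowest gap for Zm00001d048808.

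Levels of different genes were compared per length of exon. Zm00001d049243 stood at 22264 ± 1709 CPM per kb in knockout and 15325 ± 1204 CPM per kb in wild type libraries (SD, n = 4). Zm00001d048816 measured 19897 ± 2056 and 13962 ± 1621 CPM per kb. Zm00001d048808 measured 1297 ± 232 and 902 ± 135 CPM per kb. Per length, then, the pair of long genes lay close together and the short gene lay far below both. The ratio of Zm00001d049243 to Zm00001d048808 ran from 14.6 to 19.5 over knockout libraries and from 15.9 to 19.7 over wild type libraries. Even so, Zm00001d048808 ranked between 36 and 58 by CPM per kb in the 8 libraries. Reads that aligned to several places were not counted, so each of these levels holds only reads that matched one copy alone, and the order of near-identical copies is uncertain.

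The balance among the 3 genes differed between the genotypes by less than the spread between libraries. Per exon length, Zm00001d048808 held 2.99% ± 0.53 of the 3 genes' counts in knockout and 2.98% ± 0.30 in wild type libraries (SD, n = 4). Zm00001d048816 held 45.8% ± 3.16 and 46.2% ± 1.08, and Zm00001d049243 held 51.3% ± 2.69 and 50.8% ± 1.02. The libraries themselves differed most in the knockout. There the ratio of Zm00001d048816 to Zm00001d049243 per length was 0.759 in replicate 1, 1.02 in replicate 2, 0.911 in replicate 3 and 0.896 in replicate 4. In wild type it was 0.969, 0.889, 0.886 and 0.894 in replicates 1 to 4. Knockout replicate 2 was the one library in which Zm00001d048816 exceeded Zm00001d049243 per length.

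**Figure D2:**
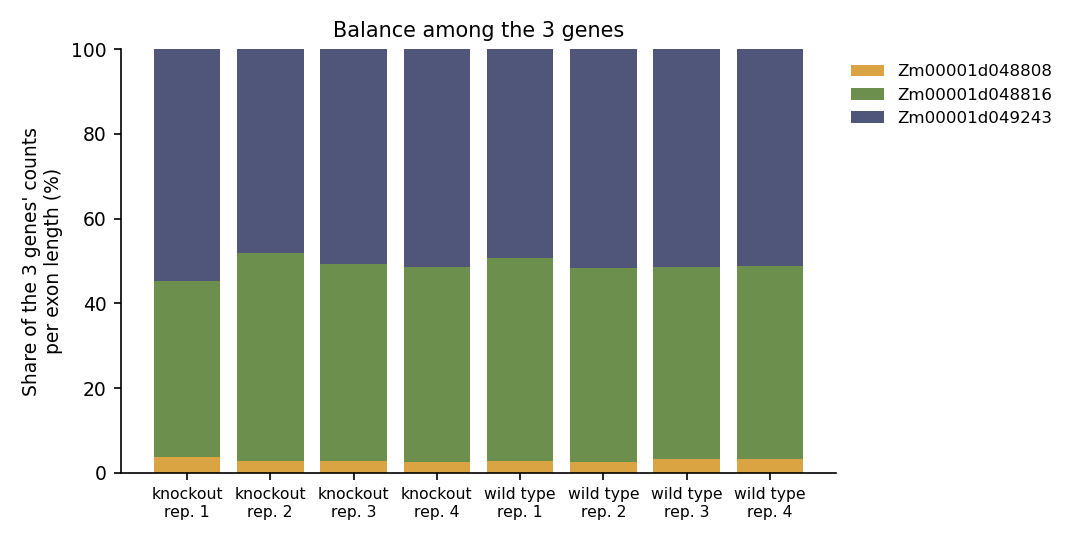
Share (%) of each gene in the counts of the 3 genes, after division by exon length, as stacked bars for the 8 libraries. Zm00001d048808 takes 2.61% to 3.76% of each bar, and knockout replicate 1 has the smallest part from Zm00001d048816, at 41.5%.

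Within a genotype the genes moved partly together. Wild type replicate 2, the deepest library, was the lowest wild type library for all 3 genes, at 0.34, 0.17 and 0.14 below the group mean on the log2 scale for Zm00001d048808, Zm00001d048816 and Zm00001d049243. Knockout replicate 1 split them. There Zm00001d048808 was 0.31 above its group mean and Zm00001d048816 deviated by -0.17, while Zm00001d049243 was 0.06 above. The pooled SD of log2 CPM within a group was 0.24 for Zm00001d048808, 0.16 for Zm00001d048816 and 0.11 for Zm00001d049243, against a median of 0.12 over the 100 most abundant genes. Counting error was small beside these spreads: the largest counting coefficient of variation was 0.657% for Zm00001d048808, whose CPM varied by 17.9% in the knockout and 15.0% in wild type. Its raw counts, 25926 to 29760 in the knockout and 23200 to 24448 in wild type, varied less between libraries than the library totals did.

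The counts of the 3 genes were also summed. The sum was 32806, 33409, 37150 and 31979 CPM in knockout replicates 1 to 4 and 26195, 21042, 22419 and 24355 CPM in wild type replicates 1 to 4. The knockout libraries were all above the wild type libraries. The means were 33836 ± 2286 and 23503 ± 2251 CPM (SD, n = 4), a ratio of 1.44-fold (log2 fold change 0.53, SE 0.08). As a share of all raw counts, the 3 genes took 3.25% ± 0.15 in the knockout, between 3.12% and 3.45%, and 2.44% ± 0.20 in wild type, between 2.24% and 2.70%. The share does not use TMM factors, and its ratio was 1.33-fold.

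The genes around the members were taken by position, as all genes lying within 500 kb of a member. There were 64, of which 39 had enough counts to test. Of these, 11 rose in the knockout (28.2%) and 3 fell (7.69%) by edgeR's quasi-likelihood test with Benjamini-Hochberg adjusted p below 0.05, where 8.51% of all tested genes rose and 10.1% fell. The window was chosen with earlier results of these data known. The risen genes include Zm00001d048847 to Zm00001d048852, which were on a list made with such results known. The shares are therefore given as a description. The rises lay among the abundant genes. The neighbours held 10 of the 100 genes with the highest mean CPM, and 9 of these rose and 0 fell (0 also by DESeq2 and limma-voom, and 0 lower at an unadjusted p below 0.05 in edgeR), while of the other 29 tested neighbours 2 rose (6.90%) and 3 fell (10.3%), close to the shares of all tested genes. Over the 100 most abundant genes as a whole, which include these 10 and 2 of the members, 52 rose and 4 fell. The files do not pair the neighbours' IDs with names, so none of them is assigned to a zein class here.

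Of the 10 abundant neighbours, 4 lay between 3.31 kb and 21.5 kb from the nearest member. Zm00001d048817 rose from 3562 ± 346 CPM in wild type to 5370 ± 482 CPM (SD, n = 4), 1.51-fold (edgeR adjusted p = 0.000918). Zm00001d048812 rose 1.34-fold to 5544 ± 611 CPM (edgeR adjusted p = 0.00773). Zm00001d048818 rose 1.45-fold to 2631 ± 573 CPM (edgeR adjusted p = 0.0281), and leaving out knockout replicate 1 or 3 or wild type replicate 2 or 3 ended that call. Zm00001d048813 stood at 2074 ± 318 CPM in knockout against 1616 ± 334 CPM in wild type libraries, 1.28-fold, and did not pass (edgeR adjusted p = 0.0990). The log2 fold changes of these 4, from 0.36 to 0.59, span those of the 3 members, from 0.51 to 0.54.

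The other 6 abundant neighbours, Zm00001d048847 to Zm00001d048852, lay 362 kb to 427 kb from Zm00001d048816. These 6 IDs were also on a planned list of IDs of other zeins and their regulators. That list was made with earlier results of these data known, so their rise is not a find by position alone. It was set aside because no source used here pairs its IDs with names. All 6 rose, by 1.73-fold to 2.00-fold, with edgeR adjusted p from 0.000663 to 0.00342. Zm00001d048851 rose from 3922 ± 549 to 7433 ± 1222 CPM, and Zm00001d048848 from 4360 ± 895 to 7533 ± 1077 CPM (SD, n = 4). Summed, the 6 came to 31127 ± 4973 CPM in knockout against 17117 ± 2662 CPM in wild type libraries, a ratio of 1.82-fold. The 4 nearer genes summed to 15620 ± 1487 and 11118 ± 980 CPM, a ratio of 1.40-fold. The difference between these ratios was not tested, since the split at 100 kb was made after the values were seen. In relative terms the 3 members took 42.1% ± 2.07 of the counts of members and abundant neighbours in the knockout and 45.5% ± 0.94 in wild type, with knockout libraries at 40.4% to 44.4% and wild type libraries at 44.9% to 46.9%.

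**Figure D3:**
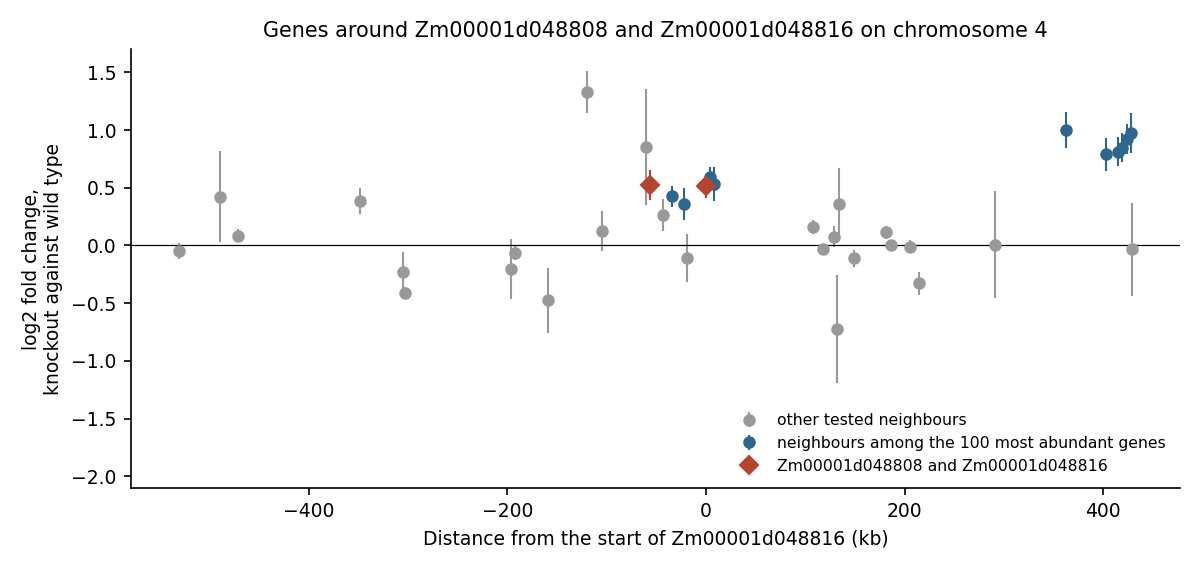
Log2 fold change of knockout against wild type, with SE bars, for tested genes within 500 kb of Zm00001d048808 or Zm00001d048816, by distance in kb from the start of Zm00001d048816. The abundant neighbours within 100 kb lie at 0.36 to 0.59, around the members, and the 6 farther ones at 0.79 to 1.00.

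Among the less abundant neighbours, the 5 that passed were Zm00001d048806, Zm00001d048794, Zm00001d048796, Zm00001d048836 and Zm00001d049242, named after their values were seen. Zm00001d048806, a gene with a single exon of 801 bases at a lower coordinate than the members, rose from 283 ± 60.1 to 711 ± 191 CPM (SD, n = 4), 2.52-fold (edgeR adjusted p = 0.000692), the largest rise of the tested neighbours. Other short genes nearby did not pass. Zm00001d048809, also with a single exon of 801 bases, measured 1.20-fold (edgeR adjusted p = 0.217). Zm00001d048810, with a single exon of 540 bases, measured 1.09-fold (edgeR adjusted p = 0.659). Zm00001d048807, with 2 exons and 765 bases, measured 1.80-fold (edgeR adjusted p = 0.277). Zm00001d048794 rose 1.31-fold to 12.7 ± 1.46 CPM (edgeR adjusted p = 0.0315), a call that ended in 6 of 17 alternatives, the replicate block (adjusted p = 0.0600) and the omission of knockout replicate 2 or 3 or wild type replicate 2 or 3 among them. The log2 fold changes of the 3 that fell were -0.41 for Zm00001d048796, -0.33 for Zm00001d048836 and -1.28 for Zm00001d049242. The call of Zm00001d048836 (edgeR adjusted p = 0.0425) ended in 10 of 17 alternatives, including the replicate block (adjusted p = 0.0870) and the omission of any single library except wild type replicate 4. Those of Zm00001d048796, Zm00001d048806 and Zm00001d049242 held in all 17. Around the lone member Zm00001d049243, 3 of 8 neighbours could be tested and 0 rose by edgeR, DESeq2 or limma-voom, with 1 higher at an unadjusted p below 0.05 in each. Of these 3, 1 fell, Zm00001d049242, from 2.17 ± 0.29 to 0.894 ± 0.187 CPM (edgeR adjusted p = 0.00117). The adjacent Zm00001d049244 measured 1.31-fold higher in the knockout without passing (edgeR adjusted p = 0.130).

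Genes with profiles most like that of the members were ranked by the root mean square difference of log2 CPM over the 8 libraries, each gene centred on its own mean and the members averaged. Of 6130 genes whose mean log2 CPM reached 5, the 5 closest were Zm00001d028535, Zm00001d034380, Zm00001d005636, Zm00001d008610 and Zm00001d018971, at 0.045, 0.049, 0.060, 0.063 and 0.063. They lie on chromosomes 1, 1, 2, 8 and 7, so none is a neighbour. Zm00001d018971 was on the same planned list of IDs of other zeins and their regulators as Zm00001d048847 to Zm00001d048852. The list was set aside because no source used here pairs its IDs with names. Zm00001d005636 stood at 413 ± 17.8 CPM in knockout against 290.2 ± 23.2 CPM in wild type libraries, and Zm00001d018971 measured 345 ± 28.3 and 241 ± 22.7 CPM (SD, n = 4). The closest of the abundant neighbours was Zm00001d048817, ranked 19 at 0.087, and the farthest was Zm00001d048852, ranked 2912 at 0.288. For scale, the members themselves differed from their own average by 0.120 for Zm00001d048808, 0.110 for Zm00001d048816 and 0.042 for Zm00001d049243. The likeness is a description: it was picked among many genes, and any gene with a like difference between the genotypes scores well.

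**Figure D4:**
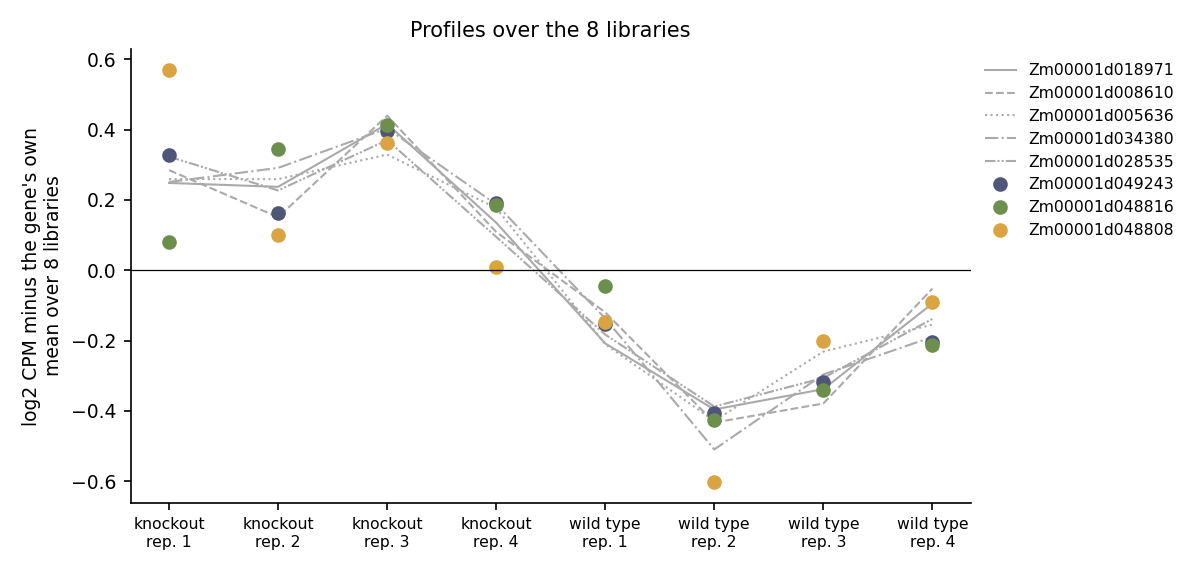
Log2 CPM minus the gene's own mean over the 8 libraries, for the 3 members (coloured points) and the 5 genes with the most similar profiles (grey lines), by library. Knockout values lie above 0 and wild type values below 0, with knockout replicate 3 high and wild type replicate 2 low in common, and the members spread most in knockout replicate 1.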

How the data were processed

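Total RNA went through a 2-step purification, and read pairs were generated on an Element AVITI sequencer, per the labels' protocols. The submitters' processing notes name Trimmomatic 0.39 and HISAT2. The authors' deposited table holds raw counts of reads for each gene, made by featureCounts 2.0.1 from an annotation of A188, per the file headers. Its command line sets nothing for strandedness, read pairs, multiple alignments or gene overlap. Reads of a pair were thus counted singly, and reads matching several copies were left out, which matters for tandem zein genes.

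Genes were kept by filterByExpr (22014 genes with 99.96% of counts, all 3 members among them), scaled by TMM and fitted with edgeR 4.0.16 (quasi-likelihood, R 4.3.3, all 8 libraries, genotype as the single term), with Benjamini-Hochberg adjustment over all tested genes and a threshold of 0.05. SEs came from the F statistic. DESeq2 1.42.0 and limma-voom (limma 3.58.1) served as alternatives. The members, lists and windows were chosen with earlier results of these data known. Genes named by plan were the members, the neighbours within 500 kb among the 100 most abundant genes, and the 5 with the most similar profiles. The less abundant neighbours given by ID were named after their values were seen. A planned list of other zeins and their regulators, and EAS markers, were not used for any count or test because no source used here pairs those IDs with names. The list is mentioned only to tell which genes described here were on it. No sequences are shown.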

Additional observations from a re-analysis of the deposited data

Results flagged for a closer look

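Values per library were searched in 34 sets of 4 for a library far from the rest of its group, where chance flags about 1 in 20, and 1 was found. The ratio of Zm00001d048816 to Zm00001d049243 per exon length was 0.969 in wild type replicate 1, where the other wild type libraries had 0.886 to 0.894.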

How the results depend on the processing

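The log2 fold change of each member and of their sum stayed above 0 in 17 alternatives, between 0.41 and 0.60 for Zm00001d048808, 0.40 and 0.59 for Zm00001d048816, 0.42 and 0.58 for Zm00001d049243 and 0.41 and 0.58 for the sum. With plain library totals as the scaling, the median of all tested genes moved to -0.12, Zm00001d049243 to 0.42 (0.54 above that median, as with TMM), the fallen neighbours to 5, and the split of all calls from 1873 higher and 2213 lower to 1032 and 4743. A window of 250 kb held 4 risen and 3 fallen neighbours, against 11 and 3 in the main window. It leaves out the 6 abundant neighbours at 362 kb to 427 kb, all of which rose. The genes tested within 250 kb were not counted, so the share of 28.2% risen holds for the main window only. Over all alternatives risen neighbours numbered 4 to 12 and fallen ones 2 to 5, with 9 to 12 and 2 to 3 when each library was left out, and 10 and 2 with the replicate block. Taken within members and abundant neighbours, the members' share was -3.37 percentage points from wild type to knockout, not 0.80 as of all counts, since the denominator holds the 6 neighbours with larger ratios. Leaving out each library gave 0.73 to 0.89 points for the share of all counts and -0.132 to 0.064 points for the share of Zm00001d048808 among the 3 genes, whose difference of 0.002 has no steady sign. With the replicate number as a block, 9 of 10 abundant neighbours rose, as without it; same-numbered libraries deviated with correlations of 0.10, 0.10, -0.05 and -0.13, so the numbers were not taken to pair them. The call of Zm00001d048818 was lost without 4 of the 8 libraries in turn, and Zm00001d048813 passed without wild type replicate 1. The alternatives for the list of zeins and regulators were not run. The first stretch alone, added after the data were seen, held all 11 risen neighbours. Depth was not the limit for the members; the reads lost to several matching copies are unknown.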
